A study of Mus musculus with 7 samples.

Results

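The nuclear or imprinted long non-coding RNAs Malat1, Neat1, Meg3, Rian, Mirg, Kcnq1ot1, Miat and Snhg11 were described in aortas from Col3a1+/G182R mice and from Col3a1+/+ controls. They were chosen by name, with earlier results of these data known, and all 8 were found among the 55487 genes of the files. Of these genes, 15688 passed the filter on low counts, and 7 of the 8 RNAs were among them. Miat did not pass.

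Most long non-coding RNAs that act in the nucleus stay close to where they are made or gather in nuclear bodies. Malat1 is an abundant, mostly unspliced RNA of nuclear speckles, the bodies rich in splicing factors. Neat1 is transcribed beside it, and its long form is the scaffold around which paraspeckles are built. Meg3, Rian and Mirg lie one after the other in the imprinted Dlk1-Dio3 domain and are expressed from the maternal chromosome, carrying small nucleolar RNAs and microRNAs in their introns and exons. Kcnq1ot1 is a paternally expressed antisense RNA that silences its neighbours in cis. Miat gathers in nuclear bodies of its own, mainly in neurons, and Snhg11 is a host gene of small nucleolar RNAs.

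RNA from the aorta of 7-week-old male mice was sequenced after selection of poly(A) RNA, with 3 libraries from Col3a1+/G182R mice and 4 from Col3a1+/+ mice, 1 mouse per library. The mutant mice are heterozygous for a knock-in glycine to arginine substitution in type III collagen, which models vascular Ehlers-Danlos syndrome, and the line was made on a C57BL/6J background from 2 embryonic stem cell clones. The counts of Col3a1 sum over both alleles, so they are no check of the genotype labels. The files held 18820015 to 23953746 counts per library in Col3a1+/G182R and 13693861 to 21634680 in Col3a1+/+, where replicate 4 was the smallest library. All 8 smooth muscle markers, which define the labelled tissue, were detected, with a summed level of 32618 to 38257 CPM (counts per library scaled to its size) in Col3a1+/G182R and 27065 to 40965 CPM in Col3a1+/+. In bulk tissue, fewer cells of a type and less RNA per cell cannot be told apart.

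The ends of Malat1 and of the long Neat1 transcript are shown first, because neither RNA ends in an ordinary poly(A) tail, while the libraries were made by poly(A) selection. In both, a pair of U-rich stretches and an A-rich tract fold into a triple helix that closes the end of the RNA, and the tRNA-like RNA that follows is cut off. The sequences are written 5′ to 3′ from the minus strand of the GRCm38 reference (GENCODE M21 transcripts), and the capitals mark the runs of at least 10 bases that both ends share in the same order.
Malat1, chr19:5795921-5796075: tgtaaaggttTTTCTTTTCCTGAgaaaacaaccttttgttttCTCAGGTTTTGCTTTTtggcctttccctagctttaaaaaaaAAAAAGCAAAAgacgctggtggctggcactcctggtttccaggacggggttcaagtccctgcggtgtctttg
Neat1 long transcript, chr19:5824708-5824807: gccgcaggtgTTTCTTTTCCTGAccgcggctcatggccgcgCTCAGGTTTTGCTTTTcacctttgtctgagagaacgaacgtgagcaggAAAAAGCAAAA

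The shared runs are 13, 16 and 11 bases long. The annotated long Neat1 transcript ends on the last base of the A-rich run, whereas the annotated Malat1 transcript goes on for 292 bases beyond it, through the tRNA-like part shown in lower case. The short Neat1 transcript ends in the ordinary way, and its last 60 bases (same build and strand) carry the polyadenylation signal AATAAA, in capitals.
Neat1 short transcript, chr19:5842307-5842366: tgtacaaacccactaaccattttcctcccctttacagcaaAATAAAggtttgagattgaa

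The Meg3 promoter is shown because Meg3 and Mirg, which lie in the same cluster downstream of it, were the members closest to Neat1 in their levels across libraries. The window runs from 250 bases before to 50 bases after the annotated start (RefSeq, GRCm38.p6, plus strand), and the capitals mark, in order, a CCAAT box (CCAAT), a cAMP response element (TGACGTCA) and a TATA box (TATAAA).
Meg3 promoter, chr12:109540746-109541045: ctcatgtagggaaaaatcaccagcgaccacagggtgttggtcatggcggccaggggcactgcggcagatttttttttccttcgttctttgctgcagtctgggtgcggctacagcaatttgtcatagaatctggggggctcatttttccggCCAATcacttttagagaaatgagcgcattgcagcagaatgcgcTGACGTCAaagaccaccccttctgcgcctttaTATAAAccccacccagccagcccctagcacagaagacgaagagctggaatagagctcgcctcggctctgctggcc

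These motifs begin 100, 57 and 25 bases before the start. On either strand, TGACGTCA was found in 1.79%, TATAAA in 13.6% and CCAAT in 37.4% of the 32851 RefSeq promoter windows of this length. Among the 7 members with a window, Meg3 alone held TGACGTCA or TATAAA, and CCAAT was also in those of Mirg and Kcnq1ot1. A match of letters is not a binding site.

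The members differed widely in abundance. In TPM, a unit that corrects counts for transcript length, the mean over the 7 libraries was 505 for Neat1, 263 for Meg3, 113 for Rian, 84.5 for Malat1 and 15.2 for Mirg. Neat1 ranked 3, Meg3 6, Rian 16, Malat1 22 and Mirg 125 among the 9911 annotated long non-coding genes. Malat1 and the long Neat1 transcript lack an ordinary poly(A) tail, and how fully poly(A) selection captured them was not tested. Their order against other RNAs thus holds for these libraries only. Neat1 was above Meg3, Meg3 above Rian and Malat1 above Mirg in each of the 7 libraries, whereas Rian was above Malat1 in 6 of 7. The mean TPM was 0.306 for Snhg11, 0.179 for Kcnq1ot1 and 0.0543 for Miat. Snhg11 was above Kcnq1ot1 in 4 of 7 libraries, so their order did not hold, while Kcnq1ot1 was above Miat in all 7. The low TPM of Kcnq1ot1 divides 177.5 to 272 counts per library by an annotated transcript of 93092 bases.

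Neat1 showed the widest genotype gap of the 7 members tested. Its level was 649, 536 and 683 CPM in Col3a1+/G182R replicates 1 to 3, against 961, 1093, 1749 and 2013 CPM in Col3a1+/+ replicates 1 to 4 (CPM after TMM scaling here and below). Every Col3a1+/G182R library was below every Col3a1+/+ library, and the Col3a1+/+ libraries themselves spread 2.09-fold, replicates 3 and 4 being the high pair. The mean was 623 ± 76.7 CPM (SD, n = 3) in Col3a1+/G182R and 1454 ± 508 CPM (SD, n = 4) in Col3a1+/+, a log2 fold change of −1.22 (SE 0.261). With edgeR's quasi-likelihood test the adjusted p (Benjamini-Hochberg) was 0.136, short of the 0.05 threshold, whereas DESeq2 gave 0.000751 on the same counts. In TPM, Neat1 was at 294, 240 and 338 in Col3a1+/G182R and at 466, 479, 766 and 955 in Col3a1+/+, with the same gap.

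Malat1, transcribed 22035 bases downstream of Neat1 on the same strand, was at 297, 246 and 370 CPM in Col3a1+/G182R and at 401, 630, 337 and 283 CPM in Col3a1+/+. The groups overlapped, and the high library was Col3a1+/+ replicate 2, while replicate 4, the top library for Neat1, was among the low ones. The log2 fold change was −0.44 (SE 0.263, edgeR adjusted p = 0.355), and −0.16 without Col3a1+/+ replicate 2. The ratio of Neat1 to Malat1 in CPM was 2.18, 2.18 and 1.85 in Col3a1+/G182R, against 2.40, 1.73, 5.18 and 7.11 in Col3a1+/+. The ratio was high in Col3a1+/+ replicates 3 and 4 and lower in the other 5 libraries.

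In the Dlk1-Dio3 cluster, Meg3, an RNA that binds chromatin-modifying complexes, was at 137, 102 and 135 CPM in Col3a1+/G182R and at 198, 145, 214 and 332 CPM in Col3a1+/+. In CPM the groups did not overlap, but the highest Col3a1+/G182R library lay just under the lowest Col3a1+/+ library. In TPM they did overlap, with Col3a1+/G182R replicate 1 at 199 and Col3a1+/+ replicate 2 at 175. The log2 fold change was −0.84 (SE 0.254), with an adjusted p of 0.167 by edgeR and 0.0397 by DESeq2. Mirg, which spans 14 annotated microRNA hairpins, was at 4.54, 4.82 and 7.20 CPM in Col3a1+/G182R and at 8.80, 6.92, 12.6 and 14.5 CPM in Col3a1+/+. In CPM, Col3a1+/G182R replicate 3 was above Col3a1+/+ replicate 2, and the other libraries were split by genotype. In TPM, Mirg did not overlap, at 8.24 to 11.7 in Col3a1+/G182R and 12.4 to 26.8 in Col3a1+/+. Its log2 fold change was −0.96 (SE 0.292), with an adjusted p of 0.167 by edgeR and 0.0422 by DESeq2.

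Rian, which lies between Meg3 and Mirg and carries small nucleolar RNAs, was at 95.3, 106 and 135 CPM in Col3a1+/G182R and at 135, 102, 124 and 126 CPM in Col3a1+/+. The ranges nearly coincided, and the log2 fold change was −0.12 (95% interval −0.43 to 0.18, edgeR adjusted p = 0.664). The ratio of Mirg to Rian was 0.0476, 0.0457 and 0.0534 in Col3a1+/G182R and 0.0651, 0.0681, 0.102 and 0.115 in Col3a1+/+, without overlap. The ratio of Meg3 to Rian was 1.44, 0.966 and 1.00 in Col3a1+/G182R and 1.47, 1.43, 1.73 and 2.63 in Col3a1+/+, with overlap. Meg3 to Mirg was 18.8 to 30.2 in Col3a1+/G182R and 16.9 to 22.8 in Col3a1+/+. Whether the RNAs of the cluster differed in their log2 fold changes was not tested, and their 95% intervals overlapped. The files divide the reads of Rian among 69 annotated transcripts, of which 20 are in GENCODE M21, and this division is an estimate.

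**Figure D1:**
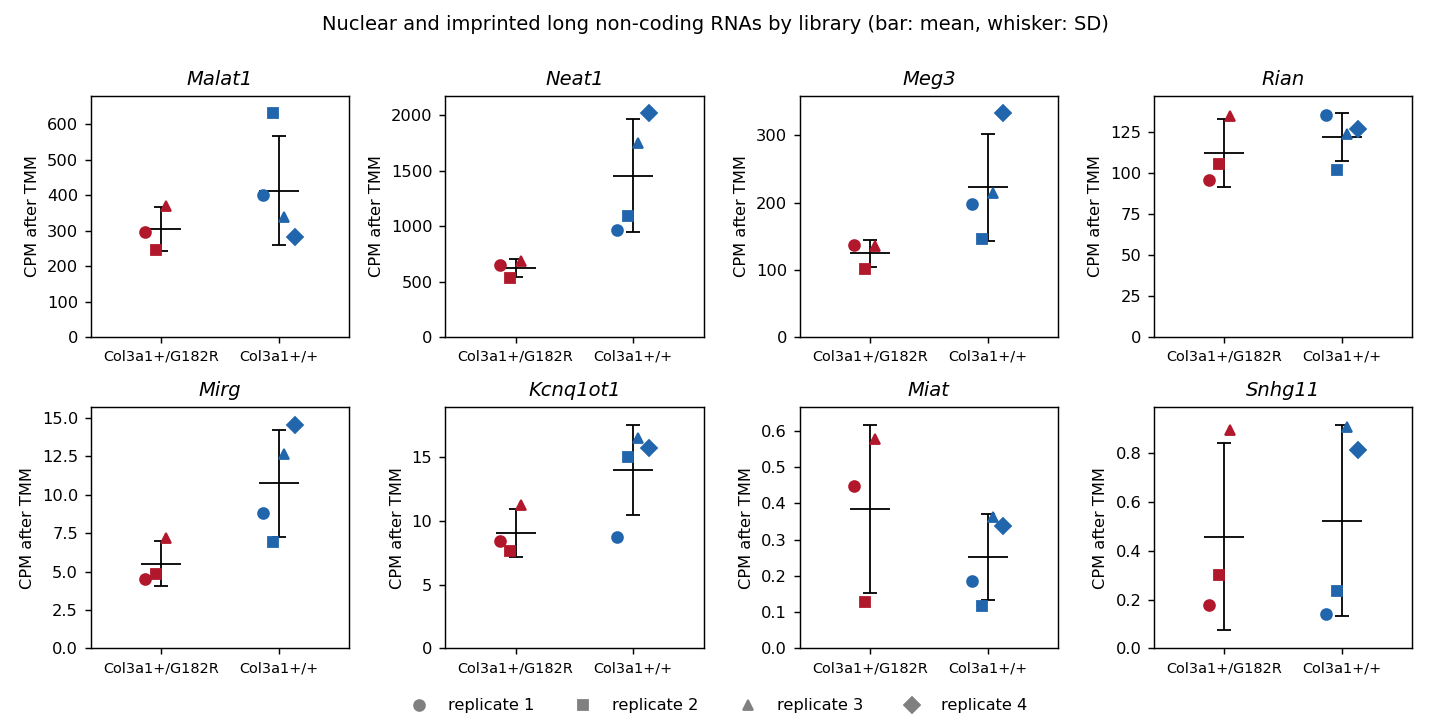
Level of each member (CPM after TMM scaling, linear axes from 0) in the 3 Col3a1+/G182R libraries (red) and the 4 Col3a1+/+ libraries (blue), marked by replicate, with the group mean (bar) and SD (whisker). Neat1 and Meg3 show no overlap between genotypes, Mirg and Kcnq1ot1 overlap by 1 Col3a1+/+ library, and Malat1, Rian, Miat and Snhg11 overlap.

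Kcnq1ot1 was at 8.40, 7.60 and 11.2 CPM in Col3a1+/G182R and at 8.76, 15.01, 16.4 and 15.7 CPM in Col3a1+/+. Col3a1+/+ replicate 1 lay among the Col3a1+/G182R libraries and the other 3 above them, and the log2 fold change was −0.62 (SE 0.244, edgeR adjusted p = 0.205). Kcnq1ot1 lies antisense within Kcnq1, and since the strand setting of the counting is not given, reads of the 2 genes may not be told apart fully. Snhg11 was at 0.180, 0.299 and 0.893 CPM in Col3a1+/G182R and at 0.139, 0.235, 0.907 and 0.812 CPM in Col3a1+/+, from 3 to 17 counts per library. Both genotypes had low and high libraries, and its log2 fold change of −0.18 had an SE of 0.749. Miat had 10, 3 and 11 counts in Col3a1+/G182R and 4, 2, 6 and 5 counts in Col3a1+/+, too few for a test. With so few counts and this spread within each genotype, no genotype difference in Miat or Snhg11 could be shown.

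Across the members, 0 of 7 passed the edgeR threshold in either direction, where 0.0382% of all genes tested did (0.0191% as lower). At an unadjusted p under 0.05, edgeR had 4 members (Neat1, Meg3, Mirg and Kcnq1ot1), all measured lower, where 20.4% of all genes passed that level and 10.8% did so as lower. DESeq2 called 3 (Neat1, Meg3 and Mirg), where it called 4.5% of all genes in either direction and 2.54% lower. limma-voom called 0 (background 0.0701%) and limma with a quality weight per library called 1, Neat1 (background 3.48%, or 1.8% lower). All 7 were measured lower in Col3a1+/G182R, as were 49.3% of all genes, with a median log2 fold change of −0.62 over the members and 0.01 over all genes. In CPM, Col3a1+/G182R was below Col3a1+/+ without overlap for 2 of the 7, Neat1 and Meg3, as for 10.8% of all genes. It was above Col3a1+/+ for none of the 7, where 10.1% of all genes were. The members were chosen with earlier results of these data known, so these counts are no independent test.

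**Figure D2:**
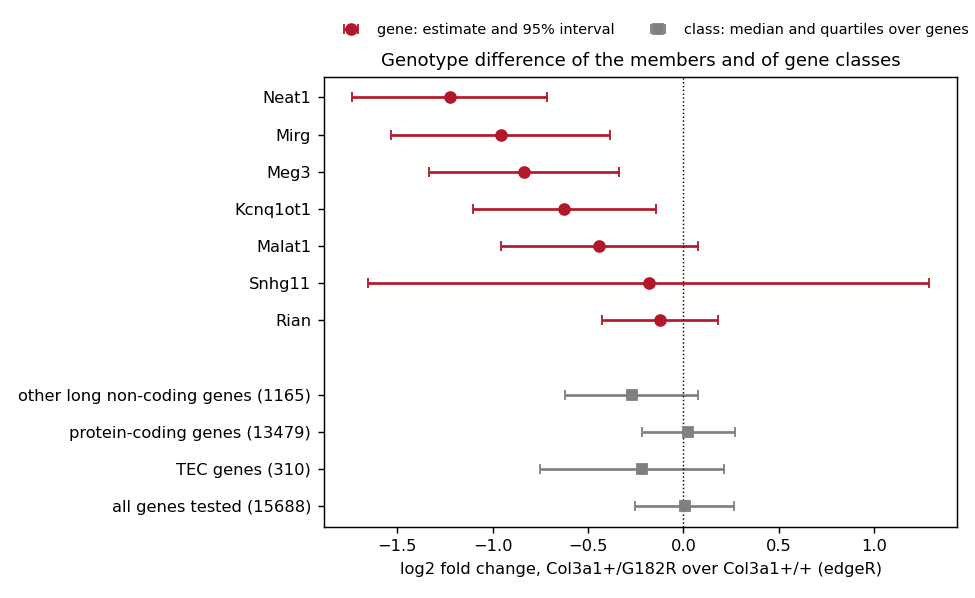
Log2 fold change between genotypes (x axis, edgeR, positive where Col3a1+/G182R is higher) for the 7 members tested (red, estimate and 95% interval) and for classes of genes (grey, median and quartiles over the number of genes given). Neat1 lies farthest to the left at −1.22 and Rian nearest to 0 at −0.12, while the median of the other long non-coding genes is −0.27.

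The call of Neat1 by DESeq2 held without each library in turn, with adjusted p of 1.08e-06 to 0.0401. Those of Meg3 and Mirg did not: without Col3a1+/G182R replicate 2, for example, DESeq2 gave 0.311 for Meg3 and 0.304 for Mirg. With edgeR, Neat1 reached 0.0440 without Col3a1+/+ replicate 1, and no other member passed without any single library. Col3a1+/+ replicate 4 had the lowest quality weight in limma, 0.321 against 0.792 to 2.71 in the others. Without it, the edgeR log2 fold changes were −1.04 for Neat1, −0.59 for Meg3 and −0.79 for Mirg.

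The members were not all highest in the same libraries. Over the 7 libraries Pearson's r of log2 CPM was 0.93 between Neat1 and Mirg, 0.91 between Neat1 and Meg3, 0.91 between Meg3 and Mirg and 0.86 between Neat1 and Kcnq1ot1. With Malat1 it was 0.16 for Neat1, −0.03 for Meg3 and 0.06 for Mirg, and between Rian and Neat1 it was 0.38. These values describe 7 points that share genotype, library and depth. Neat1, Meg3 and Mirg were highest in Col3a1+/+ replicate 4 and next in replicate 3, Malat1 was highest in Col3a1+/+ replicate 2, Kcnq1ot1 in Col3a1+/+ replicate 3 and Rian in Col3a1+/+ replicate 1.

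**Figure D3:**
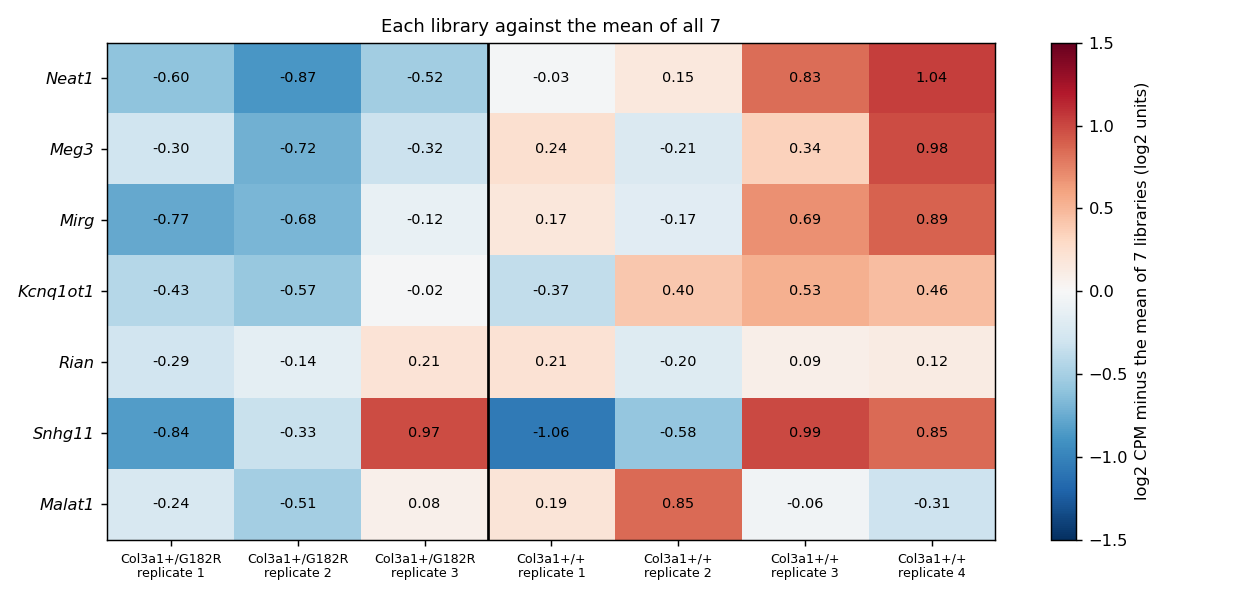
Log2 CPM of each member tested minus its mean over the 7 libraries, with Col3a1+/G182R libraries left of the line and Col3a1+/+ libraries right of it. Neat1, Meg3 and Mirg reach 1.04, 0.98 and 0.89 in Col3a1+/+ replicate 4, where Malat1 is at −0.31.

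Many other genes followed the pattern of Neat1. The genes compared, 12668, had a mean of at least 1 CPM, and genes with predicted names, many of them long non-coding, were left out. Of these, r with Neat1 was over 0.9 for 760, with Meg3 for 460, with Mirg for 265 and with Kcnq1ot1 for 133. Few followed the others, with 10 genes for Malat1 and 12 for Rian, and 59 of 12669 for Snhg11. The genes with predicted names left out, the closest to Neat1 were Rhbdf1 (an inactive rhomboid protein, r = 0.993), Slc27a4 (a fatty acid transporter, 0.992) and Use1 (a vesicle fusion protein, 0.992), and to Meg3 they were Man2c1 (0.990), Tnip2 (0.989) and Slc39a13 (a zinc transporter, 0.988). Those closest to Mirg were Leng1 (0.985), Usp2 (0.984) and Phyhd1 (0.983), and to Kcnq1ot1 Uspl1 (0.991), Mcts2 (0.983) and Chka (choline kinase, 0.982). Malat1 was closest to Gpr146 (0.954), Phykpl (0.933) and Snhg6 (0.929), Rian to Fam234a (0.983), Klhl6 (0.959) and Fam98a (0.948), and Snhg11 to Cecr2 (0.991), Noct (0.980) and Arv1 (0.978).

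The share of each library taken by these RNAs was lower in Col3a1+/G182R. Together the 8 members held 0.0981% to 0.136% of all expected counts in Col3a1+/G182R and 0.171% to 0.301% in Col3a1+/+, without overlap, and Neat1 alone held 0.0525% to 0.0691% in Col3a1+/G182R and 0.0959% to 0.217% in Col3a1+/+. Neat1 was the larger part of the members' share in each of the 7 libraries. The share of all other annotated long non-coding genes was 0.630% to 0.699% in Col3a1+/G182R and 0.707% to 0.909% in Col3a1+/+, also without overlap. Of the 1165 other long non-coding genes tested, 69.9% were measured lower (median log2 fold change −0.27), against 47.2% of 13479 protein-coding genes (median 0.03). edgeR called 2 of the 1165 and DESeq2 64, of which 63 were lower. Of all genes tested, edgeR called 0.0382% and DESeq2 4.5%, or 2.54% as lower. Of the 1165, 14.2% were lower without overlap, as were 10.8% of all genes tested. Genes of the class TEC, unspliced transcribed regions not yet studied experimentally, held 0.0660% to 0.0793% in Col3a1+/G182R and 0.0697% to 0.102% in Col3a1+/+, with overlap. Of 310 TEC genes tested, 64.2% were measured lower (median log2 fold change −0.22) and 11.6% were lower without overlap. For TEC genes edgeR called 0 and DESeq2 8, all 8 lower.

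**Figure D4:**
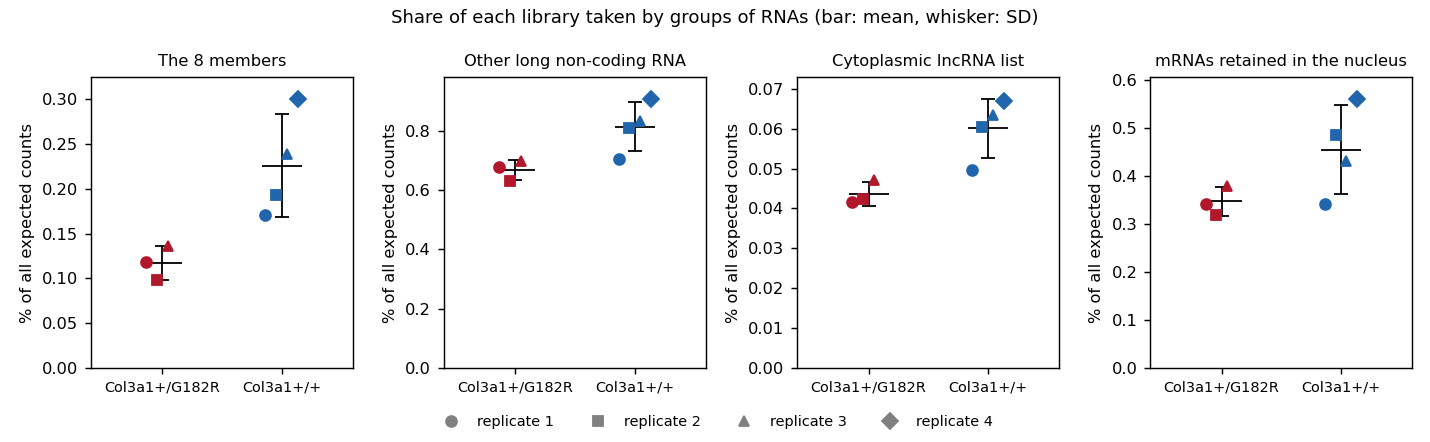
Percent of all expected counts (y axis, from 0) in the 3 Col3a1+/G182R libraries (red) and the 4 Col3a1+/+ libraries (blue), by replicate, with mean (bar) and SD (whisker), for the 8 members, all other long non-coding genes, a list of cytoplasmic long non-coding RNAs and a list of mRNAs retained in the nucleus. The first 3 groups do not overlap between genotypes, and the last does.

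To place the members beside other RNAs of the nucleus and of the cytoplasm, lists of both were described. The counts of these and later lists are to be read beside the shares over all genes tested. Of those genes, 10.8% were lower without overlap, 20.4% had an unadjusted edgeR p under 0.05, and DESeq2 called 4.5%. Of 18 other nuclear long non-coding RNAs, 12 were tested and 9 were measured lower, with a median log2 fold change of −0.48 (−0.27 without Col3a1+/+ replicate 2) and 1 without overlap in that direction. Firre, which organises chromatin contacts, had a log2 fold change of −0.76 (SE 0.248) and Dleu2, a microRNA host, −0.55 (SE 0.183), whereas Peg13, an imprinted RNA, had 0.47 (SE 0.156) and was above Col3a1+/+ without overlap. The summed level of the list overlapped, at 339 to 387 CPM in Col3a1+/G182R and 369 to 479 CPM in Col3a1+/+.

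The long non-coding RNAs found mainly in the cytoplasm are mostly spliced hosts of small nucleolar RNAs. Of 14 tested, 13 were measured lower, with a median log2 fold change of −0.47 (−0.42 without Col3a1+/+ replicate 2), and 7 were without overlap in that direction. Of all genes tested 10.8% were lower without overlap, and of the long non-coding genes other than the members 14.2%. Snhg8 was at 13.6 ± 1.09 CPM in Col3a1+/G182R (SD, n = 3) and 22.2 ± 1.67 CPM in Col3a1+/+ (SD, n = 4), a log2 fold change of −0.71 (SE 0.131). Snhg12 had −0.75 (SE 0.158) and Gas5, a growth arrest RNA, −0.48 (SE 0.133). DESeq2 called 4 of the 14, all lower, including these 3, where it called 4.5% of all genes. edgeR called 0, with 9 at an unadjusted p under 0.05, where 20.4% of all genes were. The summed level of the list was 420 to 466 CPM in Col3a1+/G182R and 498 to 652 CPM in Col3a1+/+, without overlap. Lower measured levels were also found in this list. Where its RNAs lay in these aortas was not measured, and its difference from the nuclear list was not tested.

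The mRNAs for proteins of the bodies in which Neat1 and Malat1 reside were listed as well. Of 20 mRNAs for paraspeckle proteins, 10 were measured lower and 10 higher (median −0.01), and 7 of the lower ones and 1 of the higher ones were without overlap. The lower ones included Cpsf7, a 3′ end processing factor (log2 fold change −0.60, SE 0.176), and Dazap1, an RNA-binding protein (−0.56, SE 0.169), while Ewsr1 overlapped (−0.51, SE 0.168). Of 25 mRNAs for speckle proteins, 23 were measured lower (median −0.30), and 11 were without overlap, all lower. Srrm1, a splicing coactivator, was at 91.3 ± 5.94 CPM in Col3a1+/G182R and 140 ± 26.7 CPM in Col3a1+/+ (SD, n = 3 and 4). Its log2 fold change was −0.61 (SE 0.158), that of the splicing factor Srsf5 −0.55 (SE 0.146) and that of the kinase Clk2 −0.72 (SE 0.221). edgeR called 0 in either list (7 and 11 at an unadjusted p under 0.05), and DESeq2 called 1 paraspeckle and 2 speckle mRNAs. Of all genes tested, 20.4% had an unadjusted edgeR p under 0.05 and DESeq2 called 4.5%. Without overlap, 10.8% of all genes were lower and 10.1% higher.

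Of 14 mRNAs known to be retained in the nucleus or to keep introns, 6 of whose list are also speckle proteins, 13 were measured lower (median −0.31) and 2 were without overlap. Ccnl2, a cyclin of the splicing machinery, had a log2 fold change of −0.82 (SE 0.244) and Rsrp1 −0.45 (SE 0.202). DESeq2 called 2, Srsf5 and Ccnl2, and edgeR 0 (2 at an unadjusted p under 0.05). Their summed share was 0.320% to 0.379% of counts in Col3a1+/G182R and 0.343% to 0.561% in Col3a1+/+, with overlap. Of all genes tested, DESeq2 called 4.5%, 20.4% had an unadjusted edgeR p under 0.05 and 10.8% were lower without overlap.

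Most other imprinted genes tested were measured higher, but with a median near the 0.01 of all genes tested. Their summed level overlapped, at 1368 to 1380 CPM in Col3a1+/G182R and 1316 to 1413 CPM in Col3a1+/+. Of 15 tested, 13 were measured higher and 2 lower (median 0.07; 5 lower with upper quartile scaling), and edgeR and DESeq2 called 0, with 2 at an unadjusted p under 0.05 by edgeR. Peg3, a paternally expressed zinc finger gene, had a log2 fold change of −0.49 (SE 0.167), Igf2, a growth factor, 0.61 (SE 0.230) and H19, its maternally expressed neighbour, 0.68 (SE 0.346). H19 is also in the list of cytoplasmic long non-coding RNAs. The 3 protein-coding genes of the Dlk1-Dio3 domain were below the filter. In the Kcnq1 domain, 8 protein-coding genes were tested and 3 were measured lower (median 0.02; 6 lower with upper quartile scaling), and both tools called 0 (1 at an unadjusted p under 0.05 by edgeR). Tssc4, a gene of this domain, had −0.38 (SE 0.140).

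Genes within 100 kb of a member were counted as well, members included. Of 12 tested around Malat1, 10 were measured lower, and of 14 around Neat1, 12, many of them the same genes. Ltbp3, which binds latent TGF-β, had a log2 fold change of −0.41 and Ehbp1l1 −0.37. Kcnq1, a potassium channel gene and the 1 neighbour of Kcnq1ot1 tested, had 0.60 (SE 0.455) and was not called. Its level was low, with means of 0.923 CPM in Col3a1+/G182R and 0.601 CPM in Col3a1+/+, and the groups overlapped. edgeR called 0 of these neighbours. An unadjusted p under 0.05 was found for 4 around Malat1 and 3 around Neat1, and for 20.4% of all genes tested.

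The mean transcript length in the files, an average over the transcripts of a gene weighted by their estimated abundance, was compared as a readout apart from the counts. It does not identify the transcripts read, since mixtures of short and long forms can have the same mean. For Neat1 it was 3191 ± 16.9 bases in Col3a1+/G182R (SD, n = 3) and 3134 ± 34.9 bases in Col3a1+/+ (SD, n = 4), close to the 3004 bases of the short transcript where the long one has 20771. The values did not overlap (difference 57.5 bases, exact permutation test, two-sided, p = 0.0571, adjusted over 6 members 0.343), and 35 splits allow no p below 0.0286. For Meg3 the mean was 1176 bases in Col3a1+/G182R and 1090 in Col3a1+/+, and for Malat1 6209 and 6315 bases. Rian had 1580 and 1599 bases and Mirg 932 and 884, in Col3a1+/G182R and Col3a1+/+. None of the 6 passed the threshold (adjusted p of 0.343 to 0.971).

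Other measures moved with genotype as well, and their part in these results was not tested. The length taken off each transcript for fragment size was 121 to 131 bases in Col3a1+/G182R and 114 to 120 in Col3a1+/+, without overlap. Of 8 markers of skeletal muscle, 4 were tested and all 4 were measured lower, with a summed level of 5.46 to 8.13 CPM in Col3a1+/G182R and 9.43 to 10.8 CPM in Col3a1+/+, and Myh4 was at 0 in all libraries. Of 8 markers of cardiac muscle, 5 were tested and 4 measured lower, with 73.5 to 89.9 CPM in Col3a1+/G182R and 71.7 to 150 CPM in Col3a1+/+, with overlap. Myh6, a cardiac myosin heavy chain gene, had a log2 fold change of −3.73 (SE 0.978), and Myl4 −0.94 (SE 0.253). The level of Myh6 was low, at 0.0525 to 0.811 CPM in Col3a1+/G182R and 1.27 to 13.0 CPM in Col3a1+/+. Without Col3a1+/+ replicate 1, 3 of the 5 cardiac markers tested were measured lower and 2 higher. All 8 macrophage markers were measured higher (median log2 fold change 0.79), but their sums overlapped, at 166, 236 and 427 CPM in Col3a1+/G182R and 131 to 195 CPM in Col3a1+/+, and without Col3a1+/G182R replicate 3 the median was 0.24. The 7 lymphatic markers were also measured higher, with 39.2 to 67.7 CPM in Col3a1+/G182R and 19.7 to 39.0 CPM in Col3a1+/+. Of the markers tested, 5 of 5 for red blood cells (median log2 fold change 0.87, or 0.36 without Col3a1+/G182R replicate 1), 7 of 8 for adipocytes (0.42, or 0.18 without Col3a1+/G182R replicate 3) and 7 of 8 for fibroblasts (0.27, and 0.17 to 0.55 without single libraries) were measured higher, and the summed levels of each of these 3 lists overlapped. Of 8 markers of neurons, a cell type rich in Meg3, Rian and Miat, only 2 were tested, 1 measured higher and 1 lower. The summed level of the 8 overlapped, at 47.7 to 56.9 CPM in Col3a1+/G182R and 47.6 to 67.8 CPM in Col3a1+/+. Most of it was 1 gene, Uchl1, with means of 47.5 CPM in Col3a1+/G182R and 52.0 CPM in Col3a1+/+, so it says little about neurons.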

How the data were processed

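Libraries were made with a stranded poly(A) kit, and read pairs were aligned by the authors to GRCm38 with STAR 2.7.6a and quantified with RSEM 1.3.1, per the submitters' processing notes. The study's methods name another STAR version and featureCounts, so the deposited counts may not be those behind its own comparisons. The counts were not compared. The annotation release was not given in the sources used here (55141 of 55487 gene IDs matched GENCODE M21), nor was the strand setting. The deposited expected counts per gene are estimates and were rounded to whole numbers. Deposited TPM, divided by length by the authors, served for levels between genes. It also served, without a test, to compare the genotypes for Neat1, Meg3, Mirg and the share of other long non-coding genes. Deposited mean transcript and effective lengths were also used.

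Genes with low counts were removed with filterByExpr (minimum count 10), libraries were scaled by TMM, and genotypes were compared with edgeR 4.0.16 (quasi-likelihood, two-sided, R 4.3.3), with Benjamini-Hochberg adjustment over all genes tested. CPM used TMM-scaled totals, and 95% intervals are 1.96 SE either side. DESeq2 1.42.0 and limma 3.58.1 on the same filtered genes, other scalings and filters, a length offset, a replicate block and leaving out each library were alternatives, and DESeq2 without each library was added after the data had been seen. Lists matched 223 of 226 symbols. Members and lists were chosen with earlier results of these data known.

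The text names every member. Of each list it names up to 3 genes with the smallest p and at least 1 CPM, of the genes within 100 kb of a member up to 2, and for each member tested the 3 named genes most correlated with it. Cell type markers, some lists and some neighbours are given in part. Each library is 1 mouse.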

Additional observations from a re-analysis of the deposited data

How the results depend on the processing

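The number of genes called by edgeR, 6, was 706 with DESeq2, 546 with quality weights, 353 without the filter, 46 with a replicate block, 14 with the length offset, 11 with limma-voom and 0 with at least 10 counts in every library. It ran from 0 to 183 without single libraries, and DESeq2 called 483, 116 and 122 without Col3a1+/G182R replicates 1, 2 and 3, and 1869, 716, 168 and 690 without Col3a1+/+ replicates 1 to 4. Members called, 0, were 3 with DESeq2, 1 with quality weights, 1 without the filter and 0 with the replicate block, 0 to 1 without single libraries, and 1 to 4 with DESeq2 without single libraries. Over all lists but the members and the cell type markers, 0 genes were called in the main setting, 8 with DESeq2 and 8 with quality weights. It was 2 without the filter and 0 to 2 without single libraries. Deviations of same-numbered libraries had r of −0.05, 0.02 and 0.08, so no pairing by replicate number was seen. These values cannot exclude one, and the labels do not name any.

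All 7 members tested were measured lower in 10 of 16 alternatives and 6 in the others, where Snhg11 turned or was below the filter. Its log2 fold change was 0.17 with the replicate block and ran from −1.08 to 0.19 without single libraries. Without single libraries the difference in mean length ran from −372 to 103 bases for Malat1, −48.1 to 6.85 for Rian, −15.0 to 92.8 for Mirg and −301 to 621 for Snhg11, so its sign rested on single libraries. The share of other long non-coding genes differed by −0.276 percentage points in TPM, against −0.146 in counts. The causes were not tested. Counts under 20 per library limit Snhg11 and Miat.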
